A study of Mus musculus with 40 samples.

Results

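The mitochondrial ribosomal protein genes were taken as all protein-coding genes of GENCODE M21 basic (mouse genome GRCm38) whose symbol begins with Mrpl or Mrps followed by a digit. This rule, which used no measured value, found 78 of 21951 protein-coding genes, 49 of the large subunit (Mrpl) and 29 of the small subunit (Mrps), on 17 chromosomes. They were followed through 32 lists of ChIP-seq peaks, 1 list for each of 4 histone marks in each of 8 mice. All mice were wild type C57BL/6N animals of 20 weeks, and the tissue was labelled iBAT, which the study's text gives as interscapular brown adipose tissue in its methods and as inguinal in its series description. Mice 1 and 2 received chow (NCD) and stayed warm, mice 4 and 5 received chow and were kept at 4 °C for 24 h, mice 7 and 8 stayed warm and ate high-fat food (HFD), begun at 8 weeks and continued for 12, and mice 10 and 11 received the HFD and the cold treatment. The methods state that the tissue of a pair of mice was used for each sequencing experiment, and the labels do not say whether a library held 1 animal, so p-values measure only the spread between these libraries.

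Mitochondrial ribosomal proteins are encoded in the nucleus, made in the cytosol and imported into the mitochondrion, where they assemble with the mitochondrially encoded rRNAs into the mitoribosome. The mitoribosome translates the mRNAs of the mitochondrial genome, which encode core subunits of the respiratory chain and of ATP synthase. Brown adipose tissue is rich in mitochondria and burns fuel for heat in the cold. H3K4me3 marks the start sites of active or poised genes, H3K27ac active start sites and enhancers, H3K4me1 enhancers and the flanks of start sites, and H3K27me3 genes silenced by Polycomb.

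A gene was counted as carrying a mark where a peak came within 1000 bp of any of its annotated start sites. If there were several such peaks, the one with the highest fold enrichment over input was used. The strength of a peak is given as its percentile of fold enrichment among all peaks of its own list, with 100 the strongest, since lists differed in length. The H3K4me3 lists held 13517 to 24104 peaks, the H3K27ac lists 3224 to 40604, the H3K4me1 lists 12 to 27568 and the H3K27me3 lists 20 to 6428. Mouse 7 (warm HFD) had the shortest H3K4me3, H3K27ac and H3K4me1 lists, and mouse 10 (cold HFD) the second shortest for H3K4me3 and H3K27ac, so each count below is given by mouse. Of the markers checked for the tissue, 9 of 10 of brown adipocytes had H3K4me3 in all 8 mice, the exception being Prdm16 with 7 mice. It was found in all 8 mice at 1 of 8 skeletal muscle markers (Mylpf) and 1 of 6 macrophage and leukocyte markers (Cd14). The same held for 3 of 5 endothelial markers, with Kdr and Tie1 in 7 mice, and for 0 of 4 genes of liver or neurons. The muscle marker Actn3 also had H3K4me3 in 7 mice. A share of cells that carry a mark and the amount of mark per cell cannot be told apart in bulk tissue.

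H3K4me3 was found at every mitochondrial ribosomal protein gene in every mouse, 78 of 78 in each of the 8 lists. Over all protein-coding genes the share was 60.1% and 61.0% in mice 1 and 2, 61.4% and 63.5% in mice 4 and 5, 43.6% and 58.7% in mice 7 and 8, and 54.4% and 61.9% in mice 10 and 11. Genes with H3K4me3 in all 8 mice numbered 9499 (43.3%) and are called constant H3K4me3 genes here, because they are the closer background for what follows. The cytosolic ribosomal protein genes had H3K4me3 in all 8 mice at 81 of 84 genes, and the complex I subunit genes (Nduf) at 36 of 37.

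**Figure D1:**
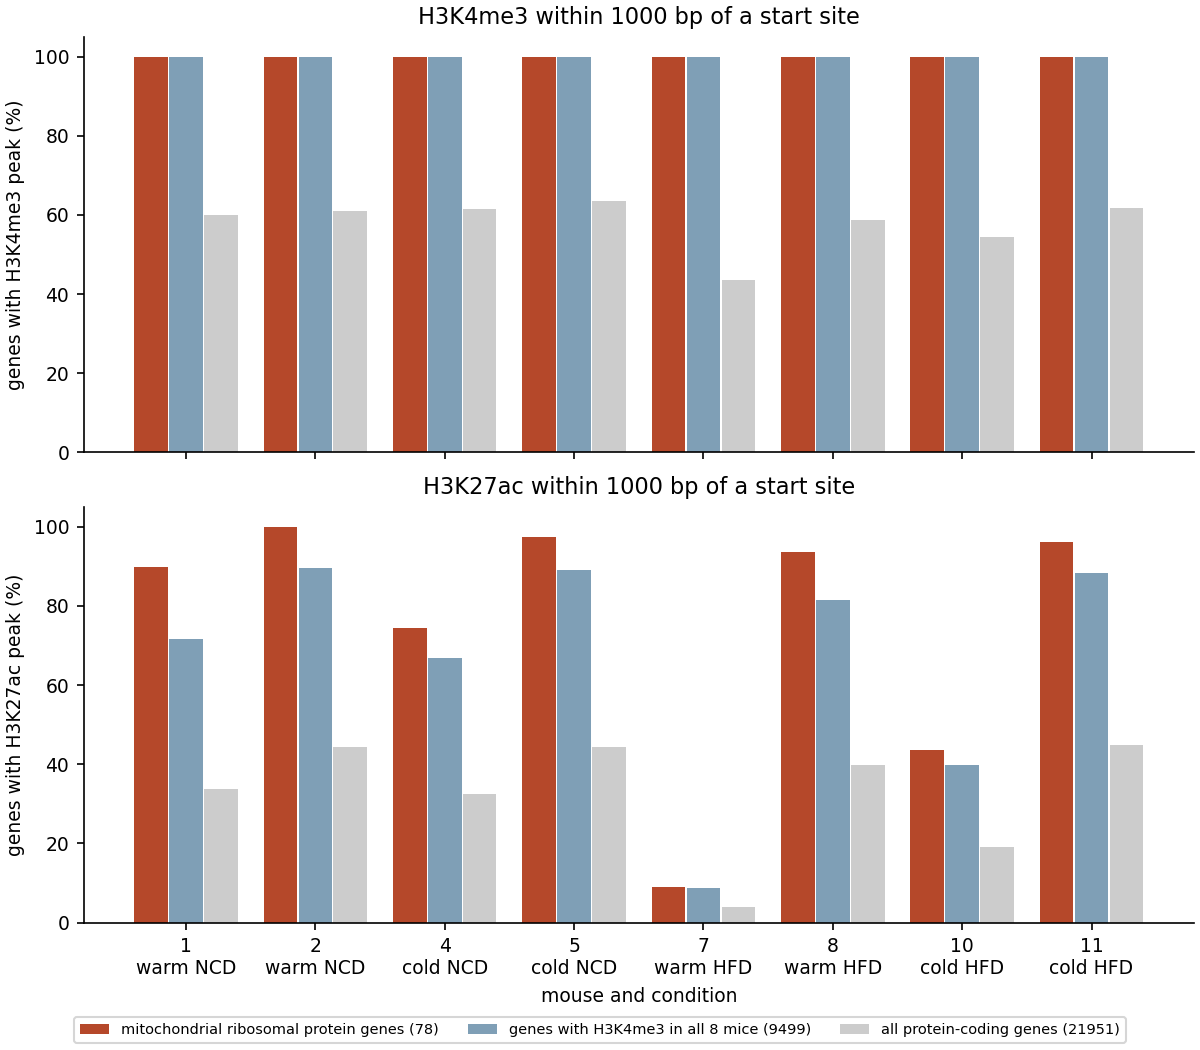
Share of genes in percent (y axis) with a peak within 1000 bp of a start site, for H3K4me3 and H3K27ac in each of the 8 mice (x axis, with their condition); colours separate the 78 mitochondrial ribosomal protein genes, the constant H3K4me3 genes and all protein-coding genes. H3K4me3 stood at 100% of the mitochondrial ribosomal protein genes in every mouse, whereas H3K27ac ranged from 8.97% in mouse 7 to 100% in mouse 2.

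The peaks at these genes were strong within their lists. The median H3K4me3 percentile over the 78 genes was 92.8 and 92.1 in mice 1 and 2, 86.0 and 91.7 in mice 4 and 5, 71.8 and 81.1 in mice 7 and 8, and 83.9 and 91.6 in mice 10 and 11. It was above the median of the constant H3K4me3 genes in all 8 mice, for which the values ran 78.6, 79.7, 76.9, 80.4, 59.8, 75.0, 72.5 and 81.8 in the same order of mice. A percentile of 80 or more was reached by 67 and 59 genes in mice 1 and 2, 53 and 57 in mice 4 and 5, 33 and 42 in mice 7 and 8, and 49 and 65 in mice 10 and 11. A percentile under 20 was seen at 12 genes in mouse 7, at 1 gene in mouse 4 and at 1 gene in mouse 10, and at none in the other mice. For 66 of the 78 genes the percentile was 50 or more in every mouse but mouse 7.

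The 5 genes with the highest mean H3K4me3 percentile were Mrpl48 (96.0 over 8 mice), Mrpl51 (93.4), Mrpl32 (93.0), Mrpl27 (92.7) and Mrpl36 (91.5), all of the large subunit. Mrpl27, a conserved protein near the peptidyl transferase centre, stood at 99.1 and 99.1 in mice 1 and 2, 96.0 and 94.8 in mice 4 and 5, 91.7 and 81.6 in mice 7 and 8, and 96.3 and 83.1 in mice 10 and 11. Its HFD values overlapped its NCD values, and its lowest values were in mice 8 and 11. The 5 lowest means were those of Mrpl40 (57.2), Mrps24 (63.3), Mrps28 (65.3), Mrpl39 (67.0) and Mrps18c (67.3). Mrpl40, which has no bacterial counterpart, was at 70.5 and 71.1 in mice 1 and 2, 55.9 and 57.2 in mice 4 and 5, 25.8 and 86.1 in mice 7 and 8, and 41.5 and 49.4 in mice 10 and 11, so its mice on the same diet and temperature differed most in the warm HFD pair.

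Several other genes of known role were low in mouse 7. Mrpl12, a stalk protein that also binds the mitochondrial RNA polymerase, was at 78.8 and 98.9 in mice 1 and 2, 84.0 and 94.3 in mice 4 and 5, 9.33 and 95.2 in mice 7 and 8, and 52.2 and 98.6 in mice 10 and 11. Mrps5, a conserved protein of the small subunit, was at 95.2, 98.1, 95.0 and 97.7 in the NCD mice 1, 2, 4 and 5, at 5.21 and 78.0 in mice 7 and 8 and at 89.4 and 98.3 in mice 10 and 11. Mrps7 behaved likewise, with 10.9 in mouse 7 against 71.4 to 99.3 in the other 7 mice. Mrps22, a small subunit protein without a bacterial counterpart, stayed between 79.3 in mouse 10 and 94.7 in mouse 2.

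**Figure D2:**
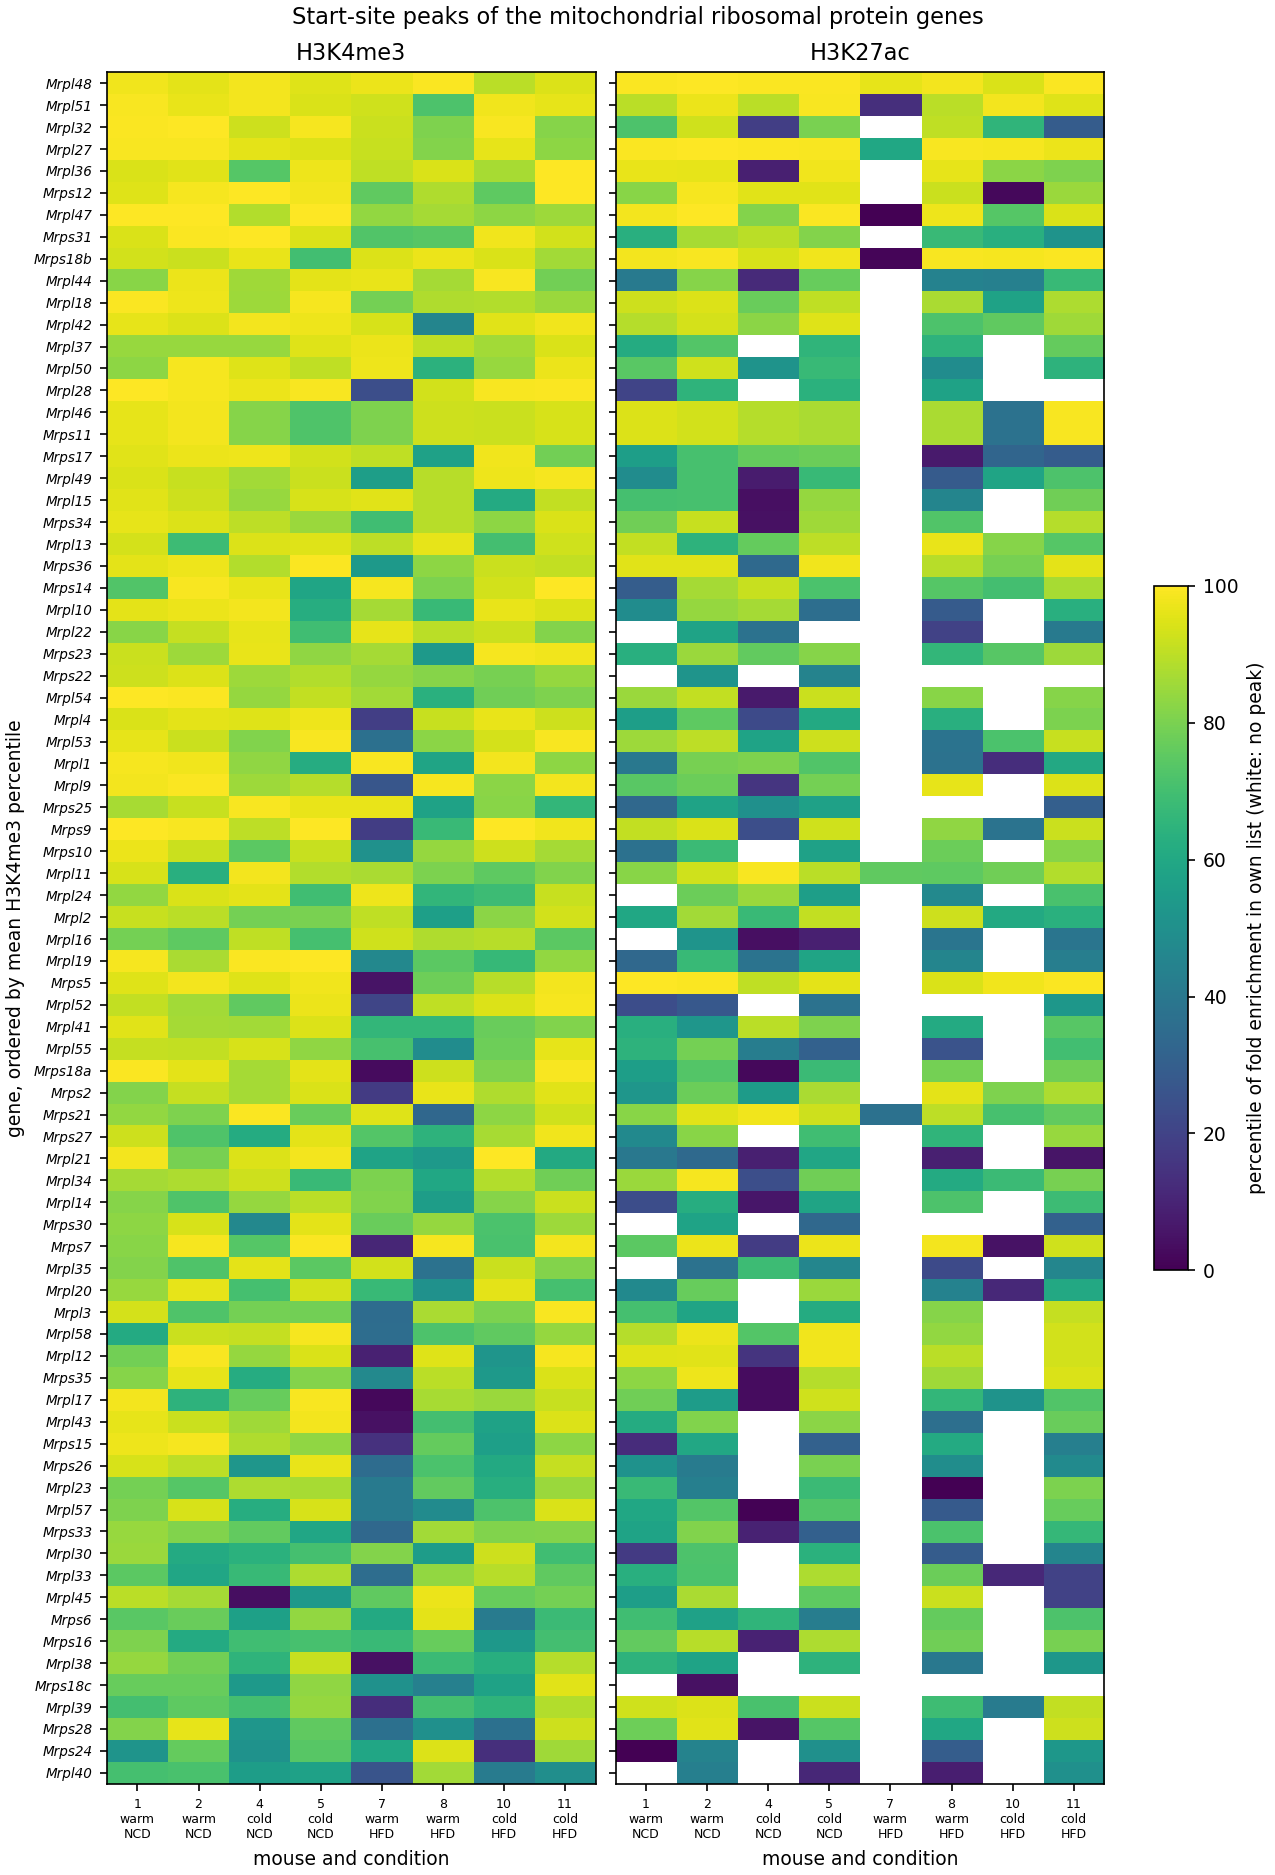
Percentile of fold enrichment of the strongest start-site peak within its own list (colour, 0 to 100, blank where there was no peak) for H3K4me3 and H3K27ac in each mouse (columns) and each of the 78 genes (rows, in order of mean H3K4me3 percentile). The H3K4me3 columns hold no blank cell, and the H3K27ac columns of mice 7 and 10 are filled at only 7 and 34 genes.

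Mrpl48 needed a closer look because its strongest peaks did not lie at its outermost start site. The gene has 3 annotated start sites on the minus strand of chromosome 7, at 100608301, 100583102 and 100547620. The strongest H3K4me3 peak lay at the middle start, 25199 bp inside the outermost one, in 6 of 8 mice, and at the outermost start in mice 5 and 8, and no peak lay at the third start. The strongest H3K27ac peak lay at the middle start in all 8 mice, with percentiles of 94.5 to 99.7, while the outermost start, which faces the start of Rab6a, had H3K27ac in 5 mice with percentiles of 54.8 to 90.6. In mouse 1 the H3K27ac peak at the middle start covered chr7:100582623-100583253. Mrpl36 was the only other gene with its strongest peak away from the outermost start, in 4 of 8 mice for H3K4me3. With the outermost start of each gene alone, chosen after the data were seen, H3K4me3 was still found at 78 of 78 genes in every mouse.

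The promoter sequences shown were picked for short letter runs of known factors or for H3K27ac in 3 or fewer mice. Those of Mrpl48 were picked for its peaks. They thus do not show how often such runs occur. The exon-free stretches of Mrpl11 and Mrps21, with H3K27ac in all 8 mice, held no such run and are not shown. Capitals mark matches on either strand to GCGCNTGCG, the core bound by nuclear respiratory factor NRF1, a regulator of nuclear genes for mitochondria, or to CCGGAAG, the core of ETS factors, which include GABPA. Sequences are from the GRCm38.p6 assembly of RefSeq, written 5′ to 3′ on the strand of the gene, and hold bases before the start site that lie in no annotated exon. Mrpl22 (chr11:58171511-58171660, plus strand), which had H3K27ac in 4 mice, and Mrpl43 (chr19:45006443-45006557, minus strand), which shares this stretch with the mitochondrial helicase gene Twnk on the other strand, hold both cores. Mrpl45 (chr11:97315566-97315715, plus strand) holds the NRF1 core at separate places, and in Mrpl9 (chr3:94443168-94443317, plus strand) overlapping matches on both strands give a single run of capitals. Mrps22 (chr9:98601680-98601829, minus strand), which had H3K27ac in 2 mice, holds the ETS core next to the start. For Mrpl48 the middle start (chr7:100583111-100583260, minus strand) holds the ETS core, and the outermost start (chr7:100608302-100608451, minus strand) holds neither core in the stretch shown.
Mrpl22: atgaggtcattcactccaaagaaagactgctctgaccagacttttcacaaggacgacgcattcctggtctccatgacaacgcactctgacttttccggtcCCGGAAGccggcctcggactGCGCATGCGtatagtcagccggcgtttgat
Mrpl43: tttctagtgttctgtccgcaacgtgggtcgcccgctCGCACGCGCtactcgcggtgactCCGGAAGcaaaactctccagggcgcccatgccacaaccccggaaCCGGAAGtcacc
Mrpl45: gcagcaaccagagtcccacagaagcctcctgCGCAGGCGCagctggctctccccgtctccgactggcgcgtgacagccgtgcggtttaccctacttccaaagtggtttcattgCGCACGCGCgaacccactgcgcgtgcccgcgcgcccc
Mrpl9: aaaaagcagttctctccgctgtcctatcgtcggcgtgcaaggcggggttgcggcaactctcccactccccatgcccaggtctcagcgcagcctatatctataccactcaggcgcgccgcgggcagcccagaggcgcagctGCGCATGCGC
Mrps22: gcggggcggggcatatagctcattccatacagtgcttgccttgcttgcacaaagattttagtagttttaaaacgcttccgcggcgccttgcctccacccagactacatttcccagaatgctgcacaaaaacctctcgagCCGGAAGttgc
Mrpl48 middle start: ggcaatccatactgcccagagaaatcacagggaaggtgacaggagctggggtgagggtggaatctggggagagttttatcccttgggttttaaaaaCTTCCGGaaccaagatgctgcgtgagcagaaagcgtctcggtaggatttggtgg
Mrpl48 outermost start: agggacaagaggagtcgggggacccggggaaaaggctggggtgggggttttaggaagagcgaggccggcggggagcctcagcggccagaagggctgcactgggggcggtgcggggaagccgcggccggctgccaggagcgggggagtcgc

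Promoter windows from 250 bases before to 50 after a start were found in RefSeq (GRCm38.p6) for 69 of the 78 genes, and for 16517 of all protein-coding genes (75.2%). The window of Mrpl48 was that of its outermost start. The NRF1 core was in 18 of 69 windows (26.1%), against 16.6% of the 7515 windows of constant H3K4me3 genes and 9.19% of all windows. The ETS core was in 24 windows (34.8%), against 22.4% and 12.3%. The run AAGATGGC of YY1 was in 12 windows (17.4%), against 5.80% and 3.27%, among them those of Mrpl32, Mrpl35, Mrps12 and Mrps18a. Counted from the start with upstream bases negative, matches centred at a median of -38 for NRF1, -13 for ETS and 19 for YY1. The NRF1 or the ETS core was present in 35 windows (50.7%, against 35.4% and 19.7%), and both in 7 windows (10.1%, against 3.65% and 1.83%), namely those of Mrpl17, Mrpl22, Mrpl43, Mrpl57, Mrps18b, Mrps21 and Mrps26.

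Other letter runs were about as frequent as in constant H3K4me3 genes or less so. CCAAT of NF-Y was in 39.1% of the windows against 39.4%, GGGCGGG of SP factors in 42.0% against 49.5%, TATAAA in 5.80% against 6.27%, TGACGTCA of CREB in 2.90% against 3.65% and TCTCGCGA of BANP in 1.45% against 2.89%. TCAAGGTCA, the extended site of oestrogen-related receptors, was in 0 of 69 windows against 0.266%. The windows were rich in CpG, with a median of 21 CpG dinucleotides in 300 bases, against 22 in constant H3K4me3 genes and 14 in all genes. An observed-to-expected CpG ratio of 0.6 or more was found in 64 of 69 windows (92.8%), against 78.8% and 49.5%. Split by H3K27ac, the NRF1 core was in 8 of 31 windows of genes with H3K27ac in 7 or 8 mice, in 5 of 16 with 6 mice and in 5 of 22 with 5 or fewer, and the ETS core in 10, 6 and 8 of them. Matches are letter runs and not measured binding, and these shares were not tested.

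**Figure D3:**
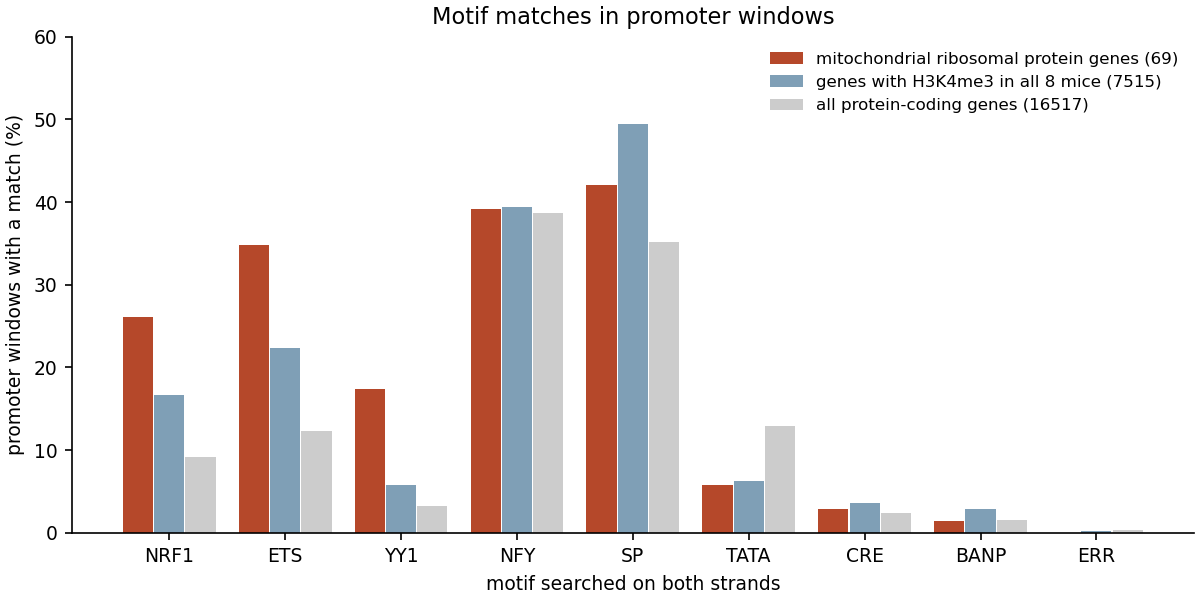
Share of promoter windows in percent (y axis) that hold at least 1 match on either strand to each letter run (x axis), in mitochondrial ribosomal protein genes, constant H3K4me3 genes and all protein-coding genes. NRF1, ETS and YY1 runs stood at 26.1%, 34.8% and 17.4% of the 69 windows, above both other sets, while NFY at 39.1% did not stand apart.

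H3K27ac was found at most of these genes in 6 of the 8 mice. It was present at 70 and 78 genes in mice 1 and 2, at 58 and 76 in mice 4 and 5, at 7 and 73 in mice 7 and 8, and at 34 and 75 in mice 10 and 11. In percent this was 89.7 and 100, 74.4 and 97.4, 8.97 and 93.6, and 43.6 and 96.2, against 71.7 and 89.6, 66.9 and 89.0, 8.68 and 81.4, and 39.8 and 88.2 of the constant H3K4me3 genes. The share was above that of the constant H3K4me3 genes in all 8 mice, though only slightly in mouse 7. In mice 7 and 10 the low counts went with H3K27ac lists of 3224 and 14511 peaks, against 16889 to 40604 in the others. This relation was not tested. With every list cut to its 3224 peaks of highest −log10 p, the counts were 25, 29, 13, 22, 7, 23, 12 and 14 genes in mice 1, 2, 4, 5, 7, 8, 10 and 11. Over all protein-coding genes the shares were then 11.4, 11.2, 7.54, 10.65, 3.92, 8.96, 6.77 and 9.10% in the same order of mice. Constant H3K4me3 genes, the closer background, were not counted with lists of equal length. All 471 H3K27ac peaks at these genes overlapped an H3K4me3 peak of the same mouse.

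By gene, H3K27ac was present in all 8 mice at 7 genes (8.97%, against 8.40% of constant H3K4me3 genes), namely Mrpl11, Mrpl27, Mrpl47, Mrpl48, Mrpl51, Mrps18b and Mrps21. It was present in 7 mice at 25 genes, in 6 at 23, in 5 at 16 and in 4 at Mrpl22, Mrpl28, Mrpl40 and Mrpl52. Without mouse 7 it was present in every mouse at 32 genes (41.0%, against 36.9%), and without mice 7 and 10 at 53 genes (68.0%, against 56.9%). At the low end, Mrps30 had H3K27ac in mice 2, 5 and 11, Mrps22 in mice 2 and 5 and Mrps18c in mouse 2 alone, although H3K4me3 was present at all 3 genes in every mouse. Mrps18c is a paralogue of Mrps18b, and the H3K27ac peak of Mrps18c in mouse 2 had a percentile of 4.35 and a width of 259 bp.

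The median H3K27ac percentile over these genes was close to that of the constant H3K4me3 genes. It was 68.5 and 80.4 in mice 1 and 2, 53.1 and 79.6 in mice 4 and 5, 37.1 and 71.7 in mice 7 and 8, and 66.8 and 77.1 in mice 10 and 11, against 70.0 and 76.0, 51.4 and 75.6, 43.9 and 72.5, and 64.1 and 78.3. It was higher in 4 mice and lower in the other 4. Mouse 7 had so few peaks that means are given without it, over the 32 genes with H3K27ac in each of the other 7 mice, a choice made after the values were seen. The highest were those of Mrpl27 (99.0), Mrpl48 (98.6), Mrps18b (98.0), Mrps5 (96.7), Mrpl51 (94.0) and Mrpl47 (92.1). Mrps5 was at 99.7 and 99.3 in mice 1 and 2, 90.4 and 96.1 in mice 4 and 5, without a peak and at 94.3 in mice 7 and 8, and at 98.0 and 99.6 in mice 10 and 11. Mrps18b was at 98.2 and 99.0, 93.9 and 97.8, 1.18 and 99.1, and 98.6 and 99.5 in the same order, so mouse 7 alone was low. Mrpl12, in contrast, was at 95.1 and 95.7 in mice 1 and 2, 15.1 and 97.8 in mice 4 and 5, 89.8 in mouse 8 and 93.4 in mouse 11, with no peak in mice 7 and 10. The percentile was under 20 at 20 of the 58 genes with a peak in mouse 4 and at 3 of 7 in mouse 7, and at 1 to 5 of the 34 to 78 genes with a peak in the other mice. Across the 78 genes, the mean H3K4me3 percentile and the number of mice with H3K27ac had a Spearman rho of 0.52, a description over genes that share the same libraries.

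**Figure D4:**
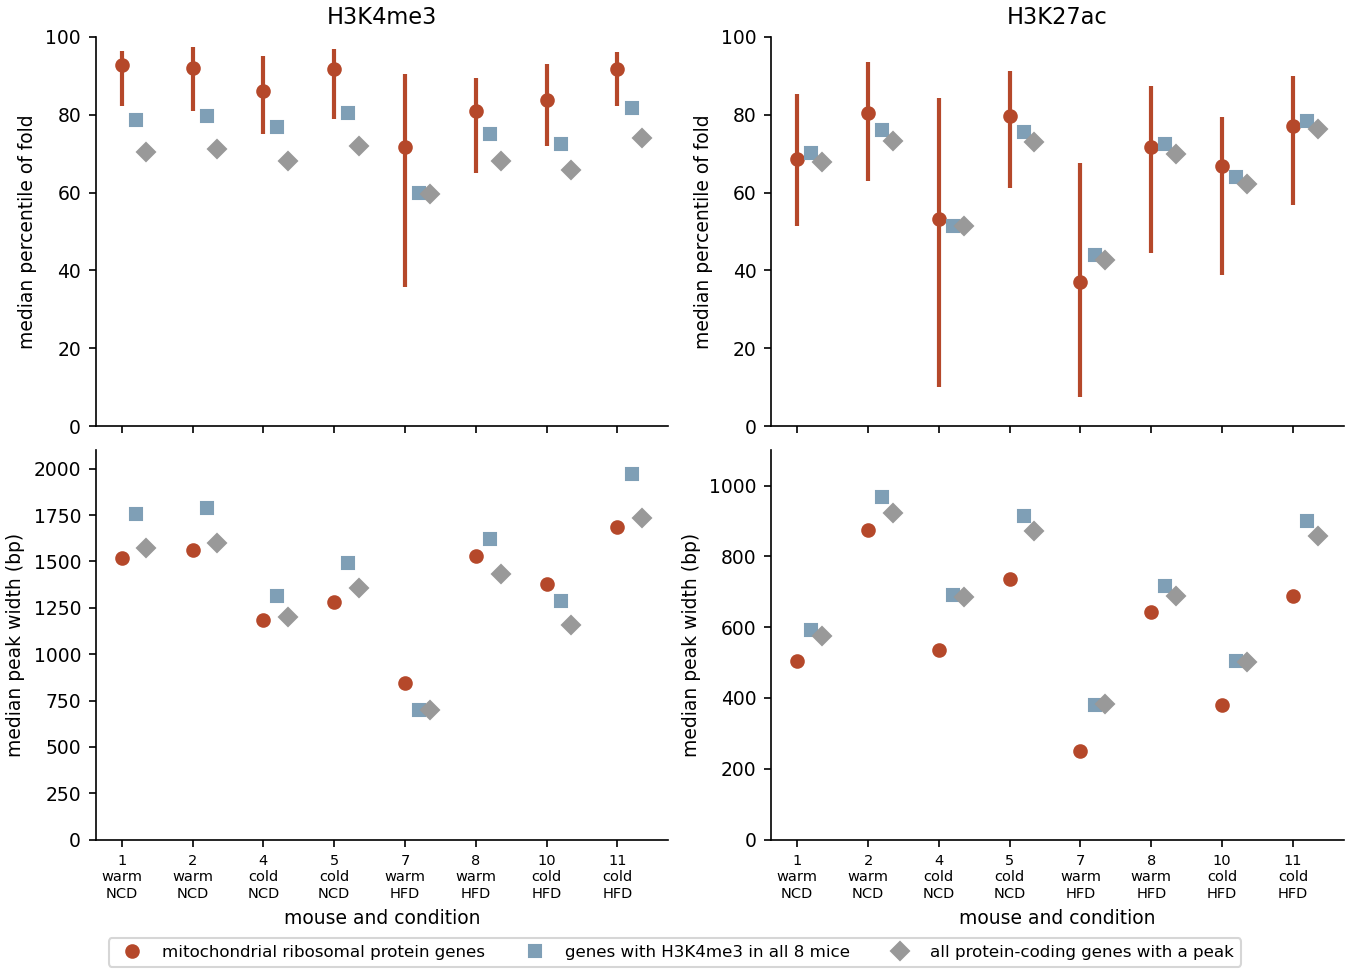
Median percentile of fold enrichment within the own list (upper panels) and median peak width in bp (lower panels) by mouse for H3K4me3 and H3K27ac; circles stand for the mitochondrial ribosomal protein genes with vertical lines for their quartiles, squares for constant H3K4me3 genes and diamonds for all genes with a peak. The H3K4me3 circles lie above the squares in all 8 mice for the percentile, and below them for width except in mice 7 and 10.

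The peaks were strong but not broad. The median H3K4me3 width over these genes was 1518 and 1562 bp in mice 1 and 2, 1182 and 1280 bp in mice 4 and 5, 844.5 and 1528 bp in mice 7 and 8, and 1378 and 1686 bp in mice 10 and 11. For the constant H3K4me3 genes it was 1754 and 1787, 1312 and 1490, 701 and 1619, and 1289 and 1973 bp, so these genes were narrower in 6 mice and wider in mice 7 and 10. The median H3K27ac width, between 249 bp in mouse 7 and 874 bp in mouse 2, was below that of all genes with a peak in every mouse. The widest H3K4me3 peaks by mean were those of Mrps18b (2960 bp), Mrpl47 (2734 bp), Mrps34 (2648 bp), Mrpl41 (2273 bp) and Mrpl51 (2143 bp). The narrowest were those of Mrpl38 (815.8 bp), Mrpl45 (895.5 bp), Mrpl22 (903.1 bp), Mrpl33 (935.2 bp) and Mrps14 (946.6 bp). Mrps34, needed for small subunit stability, had widths of 3093 and 3059 bp in mice 1 and 2, 3134 and 3125 bp in mice 4 and 5, 868 and 2897 bp in mice 7 and 8, and 1984 and 3023 bp in mice 10 and 11, so mice 7 and 10 stood below the other 6.

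Many of these genes share their promoter region with a gene on the other strand. A protein-coding start on the opposite strand lay within 1000 bp at 32 of 78 genes (41.0%), against 20.8% of constant H3K4me3 genes and 10.5% of all protein-coding genes. The median distance between the starts was 99.5 bp, and 27 of the 32 starts lay within 250 bp. Several partners act in mitochondria too. Mrpl46 and Mrps11 face each other at 30 bp and were read from the same peaks, so their values are identical and count once as evidence. Mrpl36 and Mrpl47 are paired with the complex I subunit genes Ndufs6 and Ndufb5, Mrpl43 with Twnk and Mrps12 with Sars2, the mitochondrial seryl-tRNA synthetase. Others are paired with genes of different roles, such as Mrpl49 with Fau, which encodes a cytosolic ribosomal protein, Mrpl18 with the chaperonin gene Tcp1, Mrpl32 with the proteasome gene Psma2 and Mrps18c with the helicase gene Helq. At 27 of the 32 genes, among them Mrpl46 and Mrps11, the gene and its partner had the same H3K4me3 peak in all 8 mice, so the value there cannot be assigned to either gene.

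The shape of the peaks differed with the presence of a partner. At genes with a partner the H3K4me3 peak reached a median of 871 bp upstream of the start (134 to 1017 bp over the mice), and at the 46 genes without one 400.5 bp (7 to 449.5 bp). Downstream it reached 869 and 868 bp. The summit lay downstream of the start in a median of 62.5% of genes with a partner and 96.7% of those without. Upstream and at the summit, constant H3K4me3 genes differed likewise. Their peaks reached 935 bp upstream with a partner and 502 bp without one, and the summit lay downstream in 54.5% and 84.5% of genes. Downstream their peaks reached 844.5 bp with a partner and 959.5 bp without one. H3K27ac reached 345.5 bp upstream with a partner and 34 bp without one, and its summit lay downstream in 61.9% and 90.1% of genes. At constant H3K4me3 genes, H3K27ac reached 461 and 265 bp upstream, with the summit downstream in 50.7% and 64.8%. These differences were not tested. The H3K4me3 peak covered the start itself in 567 of 624 cases (90.9%), and in 46.2% of genes in the mouse with the lowest share. The H3K27ac peak covered it in 272 of 471 (57.8%).

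**Figure D5:**
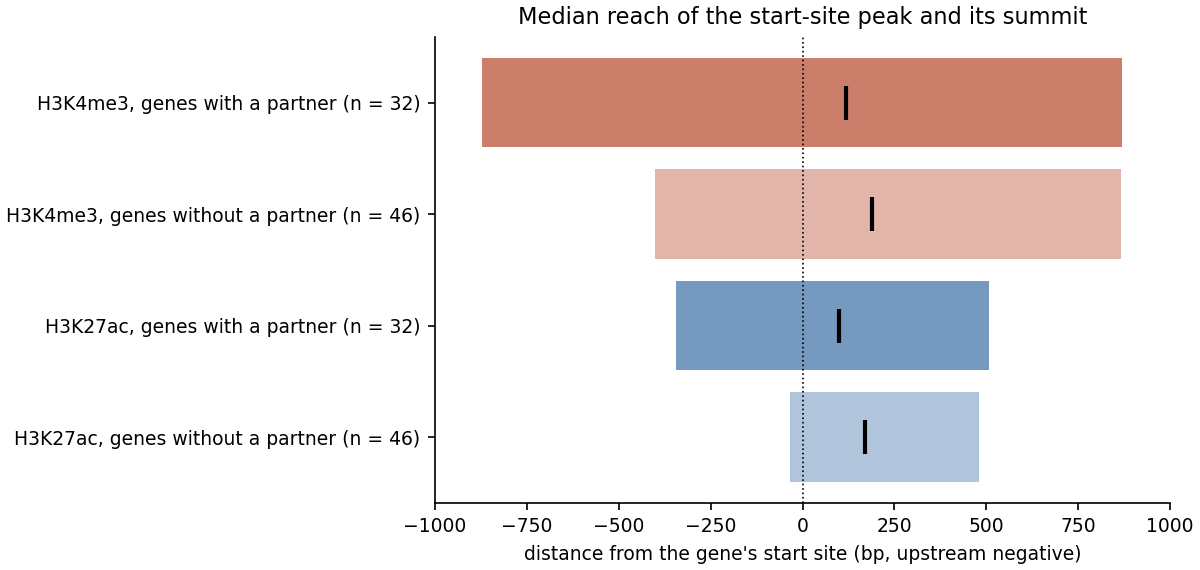
Median reach of the strongest start-site peak in bp upstream (negative) and downstream of the nearest start (x axis) for H3K4me3 and H3K27ac, in 32 genes with a start on the opposite strand within 1000 bp and 46 genes without one; bars run between the median reaches over the mice and black ticks mark the median summit. Bars reach further upstream at genes with a partner, 871 against 400.5 bp for H3K4me3, and end at about the same place downstream.

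H3K4me1 was seldom found close to these start sites, and H3K27me3 never. H3K4me1 was present at 0 and 15 genes in mice 1 and 2, 6 and 24 in mice 4 and 5, 0 and 11 in mice 7 and 8, and 0 and 6 in mice 10 and 11. The mice with 0 genes had H3K4me1 lists of 12 to 592 peaks, against 7774 to 27568 in the others, so a peak was hardly detectable in them. At least 1 mouse had H3K4me1 at 39 of 78 genes (50.0%), against 40.7% of constant H3K4me3 genes, Mrpl33 in 4 mice and Mrpl10, Mrpl36, Mrpl55 and Mrps27 in 3 (Mrpl55 and Mrps27 named after their values were seen). These 62 peaks lay at the flanks, since 1 of them covered a start and 42 (67.7%) overlapped the H3K4me3 peak of the same mouse. H3K27me3 was present at 0 of 78 genes in all mice, against 6.94% of all protein-coding genes and 0.937% of constant H3K4me3 genes with a peak in any mouse. Only mice 5 and 11 had H3K27me3 lists of more than 309 peaks, with 6428 and 1392, so in the other 6 mice a peak was hardly detectable. The neuronal gene Neurod1, outside the set, had H3K27me3 in 2 mice.

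Whether the cold treatment or the HFD moved the marks at these genes was asked first by presence. No gene of the set had H3K4me3 in all 4 mice of one temperature or diet group and in none of the other, which follows from its presence in every mouse. Among the 14245 genes with an H3K4me3 peak in at least 1 mouse, the share with such a pattern was 0.0421% for temperature and 0.239% for diet. For H3K27ac 0 of 78 genes had it. Among the 10900 genes with an H3K27ac peak in at least 1 mouse, the share was 0.119% for temperature and 0.101% for diet. Mrps25 came closest for diet, with H3K27ac in the 4 NCD mice and, on the HFD, in mouse 11 alone, and is named after its values were seen. The share of genes with H3K27ac was 60.6% ± 42.1 (SD, n = 4) on the HFD and 90.4% ± 11.5 (SD, n = 4) on NCD, and 77.9% ± 25.2 (SD, n = 4) in the cold and 73.1% ± 42.9 (SD, n = 4) in the warm. Constant H3K4me3 genes differed in the same directions. Their share was 54.5% ± 37.3 (SD, n = 4) on the HFD and 79.3% ± 11.7 (SD, n = 4) on NCD. In the cold their share was 71.0% ± 23.2 (SD, n = 4) and in the warm 62.8% ± 36.8 (SD, n = 4). At the genes of the set the HFD and NCD ranges overlapped. Both HFD mice with low counts, 7 and 10, had the shortest H3K27ac lists. Mouse 1, with 16889 peaks, had 70 genes with H3K27ac, and mouse 10, with 14511 peaks, had 34. Whether list length set the counts was not tested.

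The strength of H3K4me3 was compared gene by gene with limma on the percentile among the 9499 constant H3K4me3 genes, with Benjamini-Hochberg adjustment over all of them. Values by mouse are given, as before, as percentiles in the own list. No gene passed an adjusted p of 0.05 for temperature, diet or their interaction. At an unadjusted p under 0.05, 2 of the 78 genes were found for temperature (5.85% of all genes), 5 for diet (5.97%), all lower on the HFD, and 2 for the interaction (4.84%). The median difference over the 78 genes was 2.78 percentile points for cold minus warm (0.27 over all genes) and -6.78 points for HFD minus NCD (0.42 over all genes), with 28 of 78 genes higher on the HFD. The temperature median turned to -1.52 points without mouse 8 and to -0.0541 when weaker peaks (−log10 q under 5) were left out, and was 0.319 without mouse 1, 4.48 without mouse 4 and 5.59 when percentiles were taken in each whole list, while the diet median was -3.98 without mouse 10. The interaction, the cold difference on the HFD minus that on NCD, had a median of 22.1 points (-1.54 over all genes) and was positive at 60 of 78 genes, against 11.4 points and 49 genes without mouse 8. In own-list percentiles, mouse 7 held the lowest value of 33 of the 78 genes and mouse 8 that of 22. The lowest value thus lay in the warm HFD pair for most of the 78 genes. Constant H3K4me3 genes were not counted this way. Their own-list median was also lowest in mouse 7, at 59.8 against 72.5 to 81.8 in the other mice, with 75.0 in mouse 8.

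Mrpl19 had the lowest p for diet. Its percentile was 98.6 and 87.2 in mice 1 and 2, 99.5 and 99.7 in mice 4 and 5, 46.6 and 74.8 in mice 7 and 8, and 67.0 and 83.6 in mice 10 and 11, so the 4 HFD mice stood below the 4 NCD mice without overlap. The difference in limma was -44.3 ± 13.8 points (SE), with an adjusted p of 0.819 (Benjamini-Hochberg), and did not pass. Mrps15 followed with -42.6 ± 14.6 points (SE), its HFD values of 14.4 to 83.1 lying below its NCD values of 83.2 to 98.5. For temperature Mrpl45, a protein that anchors the ribosome at the inner membrane, had the lowest p, with 89.5 and 86.4 in mice 1 and 2, 3.90 and 53.6 in mice 4 and 5, 75.5 and 97.0 in mice 7 and 8, and 76.9 and 79.0 in mice 10 and 11. Its cold minus warm difference was -48.6 ± 13.7 points (SE; limma adjusted p = 0.835 by Benjamini-Hochberg), and cold and warm values overlapped. Mrps9 had the lowest p for the interaction, with 99.7 and 99.2 in mice 1 and 2, 90.0 and 99.9 in mice 4 and 5, 18.3 and 67.8 in mice 7 and 8, and 99.7 and 97.7 in mice 10 and 11. Its interaction was 80.5 ± 27.4 points (SE; limma adjusted p = 0.899 by Benjamini-Hochberg), with the warm HFD pair below all other mice.

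Peak width was compared in the same way, as log2 width minus the library's median over the genes fitted, and no gene passed for either factor. Unadjusted p values under 0.05 were found for diet at 9 of the 78 genes (11.5% of all genes), 8 of them relatively wider on the HFD, and for temperature at 7 genes (5.35% of all genes), all relatively narrower in the cold. Mrpl46 and Mrps11, read from the same peaks, are both counted among the 8 for diet. The median over the 78 genes was 0.25 on the log2 scale for HFD minus NCD (0.01 over all genes), positive at 62 genes, and -0.14 for cold minus warm (-0.03 over all genes), positive at 26. Without centring, which moved the median of all genes to -0.26 for diet and 0.10 for temperature, the medians of the 78 genes were -0.02 for both, positive at 35 and 38 genes, and the single unadjusted finding for diet was narrower on the HFD. The diet median was 0.16 without mouse 7 and 0.16 with summed widths, and the temperature median -0.01 without mouse 7, -0.07 without mouse 11 and -0.29 without mouse 8. Mrps36, whose protein is now known as a subunit of the 2-oxoglutarate dehydrogenase complex, had the lowest p for diet. Its widths were 2322 and 2514 bp in mice 1 and 2, 767 and 766 bp in mice 4 and 5, 1141 and 2709 bp in mice 7 and 8, and 1998 and 2588 bp in mice 10 and 11, the cold NCD pair being the narrowest. Its HFD minus NCD difference was 0.83 ± 0.17 on the log2 scale (SE; limma adjusted p = 0.244 by Benjamini-Hochberg). Mrps18b had 3289 to 4467 bp in the NCD mice, 913, 1445 and 1415 bp in mice 7, 8 and 10 and 4275 bp in mouse 11. Its difference was -0.93 ± 0.25 for the strongest peak (SE; limma adjusted p = 0.309 by Benjamini-Hochberg), and 0.0169 with the widths of all its start-site peaks summed. For temperature Mrpl45 was lowest in p, with 265 and 582 bp in mice 4 and 5 against 1212 and 1295 bp in mice 1 and 2, 614 and 1574 bp in mice 7 and 8, and 666 and 956 bp in mice 10 and 11. The width result depended on mouse 8: without it, 30 of the 78 genes passed for diet, 27 wider and 3 narrower on the HFD (28.7% of the 9500 genes fitted), and 13 for temperature, 3 wider and 10 narrower in the cold (15.1%), with mouse 7 then the only warm HFD library and assumed to vary like the other groups.

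For H3K27ac the comparison held the 7 genes of the set with a peak in all 8 mice, among 821 genes. None passed for rank or width. At an unadjusted p under 0.05, rank gave 0 of 7 for temperature (3.78% of all genes), 1 for diet (8.04%) and 0 for the interaction (7.06%), and width 0 for temperature (7.43%) and 0 for diet (4.87%). The gene found was Mrpl47, with 98.2 and 99.7 in mice 1 and 2, 81.5 and 99.3 in mice 4 and 5, 0.31 and 97.6 in mice 7 and 8, and 73.5 and 94.5 in mice 10 and 11. Its HFD minus NCD difference was -38.8 ± 16.8 points (SE; limma adjusted p = 0.543 by Benjamini-Hochberg), and mouse 7 stood far below the other 7 mice. The difference was -10.7 points without mouse 7, -25.1 without mouse 5 and -55.9 without mouse 8.

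Among other genes of mitochondrial translation, H3K4me3 was present in all 8 mice at 5 of 5 mitoribosome genes with other symbols (Aurkaip1, Chchd1, Dap3, Gadd45gip1 and Ptcd3), 23 of 24 assembly factors, 14 of 15 translation factors, 16 of 17 mitochondrial tRNA synthetases and 11 of 11 genes for expression of the mitochondrial genome. The exceptions were Mrm1, an rRNA methyltransferase, Mtfmt, the methionyl-tRNA formyltransferase, and Aars2, the alanyl-tRNA synthetase, each with 7 mice. The median of the mice's median H3K4me3 percentiles was 88.8 for the mitochondrial ribosomal protein genes, 88.7 for the mitoribosome genes with other symbols, 84.0 for assembly factors, 89.3 for translation factors, 79.3 for tRNA synthetases and 82.6 for expression of the mitochondrial genome. It was 92.9 for cytosolic ribosomal protein genes and 92.6 for complex I subunit genes. H3K27ac was present in a median of 6 mice per mitochondrial ribosomal protein gene, 5 per assembly factor, 7 per translation factor, 5 per tRNA synthetase and 7 per complex I gene, and in all 8 mice at 15 of 37 complex I genes against 7 of 78 here. Cytosolic ribosomal protein genes had a median of 7 mice, and H3K27ac in all 8 mice at 5 of 84. Constant H3K4me3 genes had a median of 6 mice, and H3K27ac in all 8 mice at 8.40%. Mtfmt and Pars2, the mitochondrial prolyl-tRNA synthetase, had H3K27ac in 0 mice and Fastkd2 in 1. None of these differences between gene lists was tested.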

How the data were processed

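Chromatin of 8 mice was immunoprecipitated for 4 marks, with 8 inputs among the 40 samples. Per the study's methods the authors trimmed reads (cutadapt), aligned them to GRCm38 (Bowtie2) and called peaks with MACS2 against the corresponding input. The submitters' notes also name deepTools, and the sources used here give neither versions nor thresholds. Each deposited list holds, per peak, the fold enrichment over input (a ratio), and −log10 p and −log10 q, as MACS2 writes them, and the smallest −log10 q was 1.301. The 32 lists held 457842 peaks, called per sample. Read depth is unknown, so list lengths are given instead. Ends of all peaks on 22 chromosomes lay within the lengths of GRCm38.

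Peaks were joined to the 41538 start sites of GENCODE M21 basic. Genes were compared with limma 3.58.1 (R 4.3.3) on all genes with a peak in all 8 mice, with the 4 conditions in 1 design, Benjamini-Hochberg adjustment and a threshold of 0.05, and the fit was tested on simulated data. Tables and plots were made with Python 3.11.15, pandas 2.3.3, numpy 2.4.6 and matplotlib 3.10.9. Groups follow the mouse numbers and conditions in the labels. The genes, lists and tests were chosen with earlier results of these data known, and list counts carry no test. Genes were named if they were on a short list of known roles, had H3K27ac in the fewest mice, were among the 5 highest or lowest by mean percentile or width, or had the lowest p of a contrast. Genes named for a motif, a partner or their number of mice beyond these were chosen after their values were seen. Alternatives were the summit in place of overlap, a window of 500 bp, a −log10 q of at least 5, lists of equal length, ranks by −log10 p, other designs and leaving out mice. Promoter windows of 9 genes were not used here.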

Additional observations from a re-analysis of the deposited data

Results flagged for a closer look

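Among 25 groups of 4 to 8 libraries tested for a library that stood apart from the rest of its group, 3 gave one, and about 1 in 20 would do so by chance. The median H3K4me3 percentile of the mitochondrial ribosomal protein genes in NCD mice ran from 91.7 to 92.8, apart from mouse 4 at 86.0. The median H3K4me3 width in warm mice ran from 1518 to 1562 bp, apart from mouse 7 at 844.5 bp. H3K27ac was present at 70 to 78 genes in warm mice, apart from mouse 7 with 7 genes. The H3K4me3 and H3K27ac lists of mouse 7 were the shortest of their marks.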

How the results depend on the processing

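No paired analysis was possible because a mouse number recurs across the marks of 1 condition and never in another condition. Of 859 values recomputed under an alternative, 802 were labelled unchanged. That label allowed counts to move within a fixed factor and other values within the SD between mice. Single genes kept it with the same sign and the same side of the adjusted p threshold. No gene passed that threshold in the fits reported above with all mice, so the label was easily kept and the total does not measure stability. A turn in sign was recorded only for single genes. With mice left out, cold minus warm in median percentile ran from -0.344 to 6.67 for H3K4me3 (3.87 with all mice). For H3K27ac it ran from -4.37 to 10.1 (4.725 with all mice). With lists of equal length, the median number of genes with H3K27ac fell from 71.5 to 18, since fewer peaks were kept, and the median H3K27ac percentile and width rose to 91.8 and 952.5 bp. H3K4me1 in any mouse, at 39 genes, was found at 6 with a window of 500 bp, at 5 with a −log10 q of at least 5 and at 0 with equal lists. Leaving out 1 mouse gave 28 to 39 such genes. In limma, H3K4me3 width by diet called 1 gene under the additive design and 1 with summed widths, and 0 to 2725 without 1 mouse (temperature 0 to 1431), 2725 and 1431 being without mouse 8 and 2 (diet) without mouse 7. H3K27ac width by temperature called 22 genes with 6 mice or more, 1 with summed widths, 1 uncentred and 0 to 32 without 1 mouse (diet 0 to 2). H3K27ac presence by diet gave 0 to 1 gene of the set without 1 mouse, and 11 to 97 genes over all protein-coding genes. The direction turned for Mrps21 H3K27ac rank interaction (3.84 in the own list), Mrpl47 H3K27ac rank by temperature (5.04 with 6 mice, 13.2 in the own list, -30.3 to 0.43 without 1 mouse, above 0 without mouse 8), Mrpl47 H3K27ac width by diet (-0.0416 summed, -0.36 uncentred, -0.21 to 0.77 without 1 mouse, below 0 without mouse 4), Mrpl48 H3K27ac width by temperature (0.21 uncentred) and Mrps18b H3K4me3 width by diet (0.0169 summed), and the cause was not tested. Without mice 7 and 10, chosen after seeing the data, the HFD minus NCD difference in median percentile was -4.30 for H3K4me3 (-8.56 with all mice) and 3.96 for H3K27ac (-7.25). H3K27ac in mice 7 and 10, H3K4me1 in mice 1, 7 and 10 and H3K27me3 outside mice 5 and 11 rest on short lists.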
